A study of Mus musculus with 75 samples.

Results

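The cytochrome P450 family was followed in whole mouse kidneys 3 days after unilateral ureteral obstruction (UUO), in which the ureter of 1 kidney is tied, and in the unobstructed contralateral (CL) kidneys. Members were the genes of the deposited count table whose symbol starts with Cyp and a digit, pseudogenes left out, which gave 101 of 32245 genes. Read counts came from 75 bulk RNA sequencing libraries in 12 groups. In the antibody arm, adult mice received IgG (a human IgG Fc control; 8 CL and 8 UUO libraries) or ABTAA, an antibody that binds ANGPT2 and activates the endothelial receptor TIE2 (labelled ABT, 7 CL and 7 UUO), in C57BL6/J or wild-type mice. In the *Veptp* arm, VeptpiECKO mice carried floxed *Veptp* (*Ptprb*, a phosphatase that restrains TIE2) and the tamoxifen-inducible Cdh5-CreERT2 transgene, which acts in endothelial cells (labelled VeKO, 6 CL and 8 UUO), and VeptpWT controls were noninduced littermates with 1 floxed allele and the same Cre (labelled VeWT, 7 CL and 8 UUO), so that the deletion and tamoxifen cannot be told apart. In the *Pdgfb* arm, PdgfbiKO mice carried floxed *Pdgfb* and the tamoxifen-inducible Actb-CreERT2 transgene, which acts in the whole body (labelled PbKO, 4 CL and 4 UUO), and PdgfbWT controls were Cre-negative littermates with 1 or both alleles floxed (labelled PbWT, 4 CL and 4 UUO). The deletion and the Cre transgene cannot be told apart there. These lines were on a mixed background. Kidneys of 2 sham-operated PdgfbWT mice are among the PdgfbWT CL libraries and are not marked. Both sexes were used, all mice were adult and all were given carprofen against pain.

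Cytochromes P450 are haem enzymes of the endoplasmic reticulum or mitochondria that insert an oxygen atom into a substrate, with electrons handed over by P450 oxidoreductase or by adrenodoxin. Members of families 1 to 3 oxidise foreign compounds and steroids, the Cyp2c and Cyp2j enzymes form epoxides of arachidonic acid, family 4 hydroxylates the far end of fatty acids, and others make or break down sterols, bile acids, vitamin D and retinoic acid. In the kidney most of these enzymes sit in the proximal tubule, and in mice several differ between the sexes because androgens or growth hormone patterns set their transcription.

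Of the 101 members, 3 had no count in any library (*Cyp3a16*, *Cyp2a22* and *Cyp19a1*). A gene was tested in an arm where edgeR's filter on low counts kept it. The filter kept 31 members of 9579 genes in the antibody arm, 35 of 11916 in the *Veptp* arm and 34 of 10923 in the *Pdgfb* arm. These were 35 different members, 31 of them tested in all 3 arms. Among the 66 members tested in no arm, 32 had a total of fewer than 10 counts over the 75 libraries, 26 had 10 to 99 and 8 had 100 or more, up to 246 for *Cyp26b1*. A filter keeps genes through the groups where they are high, so counts among the tested members do not describe the family as a whole.

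Levels are given as CPM, a gene's count scaled to a common library size by trimmed-mean (TMM) factors over the 75 libraries. Library totals ran from 172827 to 2341800 counts with a median of 757897, and a count of 0, which allows up to 3 counts, allows 1.04 to 20.1 CPM, depending on the library (counting error only). Per kilobase of transcript, a scale on which genes can be compared, the mean over the 6 CL groups was highest for *Cyp2j5*, an arachidonic acid epoxygenase, at 488 CPM per kb, and for *Cyp4b1*, which oxidises fatty acids and furan toxins, at 483 CPM per kb. *Cyp2e1*, the ethanol and solvent oxidase, stood at 274 CPM per kb, the fatty acid hydroxylase *Cyp4a10* at 271 and the steroid hydroxylase *Cyp2a4* at 199.7. *Cyp51*, the sterol demethylase of cholesterol synthesis, stood at 96.4 CPM per kb. The vitamin D enzymes were lower, with *Cyp24a1*, which breaks down calcitriol, at 21.7 CPM per kb and *Cyp27b1*, which makes it, at 3.64. *Cyp1b1*, which oxidises oestradiol and aromatic hydrocarbons, stood at 2.54 CPM per kb. The range of the CL group means did not overlap for *Cyp2j5* (428 to 550 CPM per kb) and *Cyp4a10* (182 to 385), whereas that of *Cyp4b1* (196 to 705) overlapped both.

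The 5 members with the most counts held 58.5% of the family's counts. The whole family held 0.192% to 1.36% of a library. In the IgG groups its share was 0.340%, 0.523% and 0.973% (lowest, median, highest) in CL kidneys and 0.209%, 0.285% and 0.419% in UUO kidneys. In the PdgfbWT groups it was 0.348% to 0.679% in CL kidneys and 0.200% to 0.259% in UUO kidneys, without overlap. In the libraries labelled PdgfbiKO, the share of 0.303% to 0.625% in CL kidneys overlapped that of 0.304% to 0.550% in UUO kidneys.

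Several features of the libraries touch these results. Male mice carry Y-chromosome genes and female mice transcribe *Xist*. With 10 counts as the limit for *Xist* and for the sum of 4 Y-chromosome genes (*Uty*, *Kdm5d*, *Ddx3y* and *Eif2s3y*), 28 libraries held *Xist* alone, 23 held Y transcripts alone and 24 held both. The 24 cannot be assigned to 1 sex, and why they held both was not tested. The PdgfbiKO UUO group had 4 of 4 libraries with both, where the PdgfbWT UUO group had 2 with both and 2 with *Xist* alone. The PdgfbiKO CL group had 3 with *Xist* alone and 1 with Y transcripts alone. In VeptpWT, 5 of 7 CL libraries held Y transcripts alone, against 3 of 8 UUO libraries. UUO over CL was thus not balanced for these transcripts in PdgfbiKO and VeptpWT. Library names are a letter and a number, split by a _ sign in 30 libraries (split names) and joined in 45 (joined names), and the sources used here do not say what this marks. Among split names only IgG UUO replicate 7 and VeptpiECKO CL replicate 6 held both *Xist* and Y transcripts. The rest of the 24 had joined names, among them all of the PdgfbiKO UUO group. In the *Veptp* arm, CL and UUO libraries numbered 3, 4, 7 and 8 under the split names carry opposite genotypes. The study states 7 VeptpWT mice for the sequencing, where 8 UUO libraries carry that label. The targeted genes did not pass the test within CL or within UUO kidneys: *Ptprb* differed by -0.69 on the log2 scale (SE 0.33) between VeptpiECKO and VeptpWT UUO kidneys and by -0.63 (SE 0.36) between CL kidneys (edgeR adjusted p = 1.00 for both). *Pdgfb* stood at 16.8 to 25.0 CPM in the CL libraries labelled PdgfbiKO against 4.51 to 20.0 in PdgfbWT, and at 33.2 to 40.8 against 43.7 to 57.6 in UUO kidneys, and neither difference passed, while the UUO response of *Pdgfb*, PdgfbiKO minus PdgfbWT, differed by -1.26 (SE 0.39, adjusted p = 0.0458). The summed level of 10 proximal tubule markers, the main cell type of the kidney cortex, was 7203 to 11372 CPM over the CL libraries. Nothing says which CL and UUO kidneys came from the same mouse outside the numbered names, and p-values measure the spread between libraries.

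Some members differed widely between libraries of the same group, and these differences went along with the Y-chromosome transcripts. *Cyp2j13* (chr4:96027534-96077546, GRCm38, minus strand), a member of the Cyp2j cluster, and *Cyp4b1* (chr4:115624725-115647723, minus strand) are examples, and the 250 bases before their first RefSeq start sites (GRCm38.p6, minus strand, chr4:96077541-96077790 and chr4:115647722-115647971) are shown because androgen receptors bind half-sites with the letters AGAACA or TGTTCT. Both strands were searched, and capitals mark the match in *Cyp4b1*, whose first base lies 248 bases before the start. *Cyp2j13* had no match in this window.
Cyp2j13: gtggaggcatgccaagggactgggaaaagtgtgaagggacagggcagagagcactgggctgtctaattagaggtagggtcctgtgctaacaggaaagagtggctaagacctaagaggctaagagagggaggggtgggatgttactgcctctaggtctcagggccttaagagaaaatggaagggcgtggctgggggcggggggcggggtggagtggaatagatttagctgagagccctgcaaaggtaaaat
Cyp4b1: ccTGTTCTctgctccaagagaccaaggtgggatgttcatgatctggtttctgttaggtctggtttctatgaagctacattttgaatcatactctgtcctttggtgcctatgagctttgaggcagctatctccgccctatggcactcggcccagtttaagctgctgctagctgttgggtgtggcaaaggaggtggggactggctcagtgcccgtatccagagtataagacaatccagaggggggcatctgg
The half-site occurred in 16.1% of the 32851 promoters of this length in the table and in 17 of the 88 member promoters, which belong to 78 members.

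*Cyp2j13* stood at 0, 1.58 and 7.18 CPM (lowest, median, highest) in the 14 CL libraries with *Xist* alone, at 23.7, 91.6 and 299.9 in the 9 with both, and at 134, 246 and 498 in the 13 with Y transcripts alone. The libraries with *Xist* alone lay below all others, and those with both overlapped those with Y transcripts alone. In UUO kidneys *Cyp2j13* ran from 1.17 to 46.9 CPM in the 14 libraries with *Xist* alone and from 60.2 to 277 in the 10 with Y transcripts alone, again without overlap. The 46.9 CPM was VeptpiECKO UUO replicate 1, a library of 178137 counts with 6 Y-chromosome counts (40.2 CPM). Its kind is uncertain, because the limit of 10 counts is not scaled to depth. *Cyp7b1*, the hydroxylase that clears oxysterols and some steroids, had CL levels of 1.78, 4.48 and 16.7 CPM with *Xist* alone and 189, 347 and 579 with Y transcripts alone. *Cyp4b1* had CL levels of 68.8, 119.8 and 290 CPM with *Xist* alone and 1456, 2034 and 3522 with Y transcripts alone. *Cyp2e1* had 33.5, 53.9 and 242 CPM against 592, 1194 and 2381. For these 3 genes too, the CL libraries of the 2 kinds did not overlap, and those with both lay above the libraries with *Xist* alone for *Cyp7b1* and *Cyp4b1* and overlapped both kinds for *Cyp2e1*.

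The opposite order was seen for *Cyp4a14*, a PPARA-responsive fatty acid hydroxylase, and for *Cyp2d26*. *Cyp4a14* stood at 257, 390 and 858 CPM in CL libraries with *Xist* alone and at 89.4, 164 and 321 in those with Y transcripts alone, ranges that overlapped. *Cyp2d26* stood at 133, 225 and 455 CPM against 45.0, 77.6 and 137, which overlapped by little. *Cyp2a4* stood at 174, 225 and 412 CPM with *Xist* alone and 281, 428 and 760 with Y transcripts alone, and these overlapped.

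**Figure D1:**
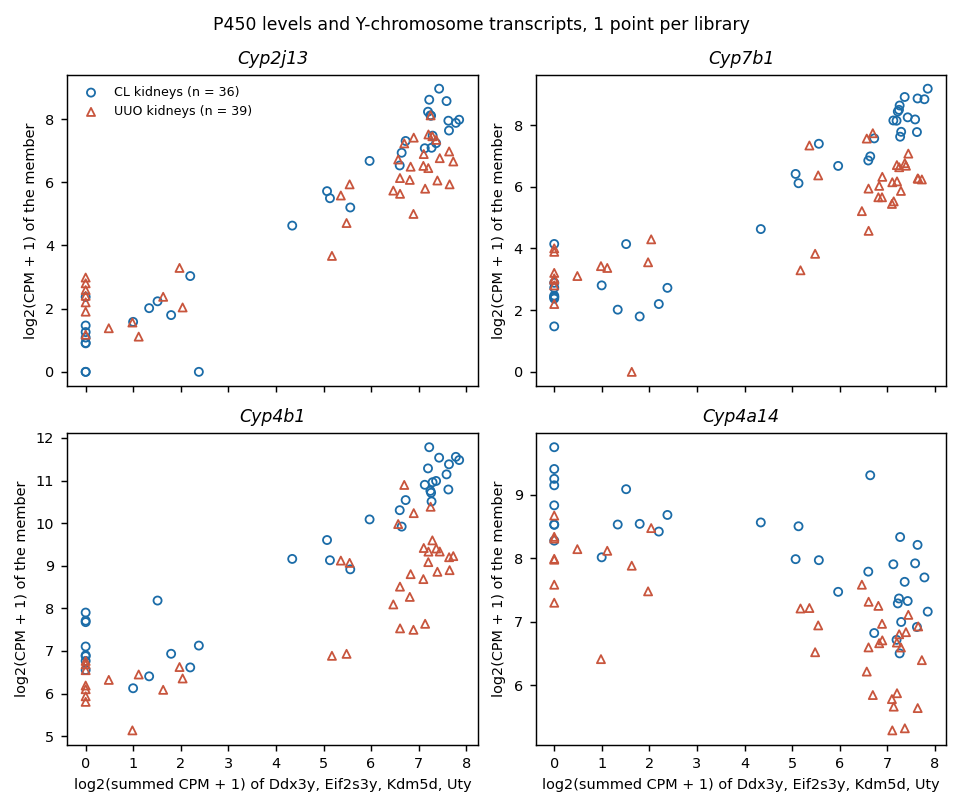
Levels of *Cyp2j13*, *Cyp7b1*, *Cyp4b1* and *Cyp4a14*, as log2(CPM + 1), against the summed level of 4 Y-chromosome genes on the same scale, with 1 circle for each CL library (n = 36) and 1 triangle for each UUO library (n = 39). Points of *Cyp2j13*, *Cyp7b1* and *Cyp4b1* lie higher toward the right of each panel, and those of *Cyp4a14* lie lower.

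The Y-chromosome sum, as log2(CPM + 1), was added to the model of each arm as a covariate, a choice made after the data had been seen. It gave a slope per gene, in log2 units per unit of that scale. For these slopes the form of the library name was also a covariate in the antibody and *Veptp* arms. Results given below with the Y-chromosome sum as a covariate are without the form, unless the form is named. In the antibody arm the slope passed the test (edgeR quasi-likelihood, adjusted p under 0.05) for 17 of 31 members, 10 positive and 7 negative, where 5.85% of all genes passed (3.05% positive, 2.8% negative). For the *Veptp* arm it passed for 12 of 35 members, 9 positive and 3 negative, beside 8.18% of all genes (4.46% and 3.73%), and in the *Pdgfb* arm for 10 of 34, 9 positive and 1 negative, beside 1.62% (0.842% and 0.778%). The same 9 members were positive in all 3 arms: *Cyp2j13*, *Cyp7b1*, *Cyp4b1*, *Cyp2e1*, *Cyp4a12a*, *Cyp4a12b*, *Cyp2d9*, *Cyp2a4* and *Cyp2a5*. *Cyp2j13* had the steepest slopes of the members at 0.83 (SE 0.04), 0.89 (SE 0.05) and 0.93 (SE 0.06) in the 3 arms, with adjusted p of 6.94e-26, 8.03e-20 and 5.33e-13. *Cyp7b1* had 0.69, 0.64 and 0.62, *Cyp4b1* 0.46, 0.53 and 0.45, and *Cyp2e1* 0.46, 0.42 and 0.41. *Cyp2d26* was negative in all 3 arms, at -0.21, -0.22 and -0.21. *Cyp4a14* and *Cyp2d12* were negative in the antibody arm (-0.18 and -0.10) and in the *Veptp* arm (-0.28 and -0.18) and did not pass in the *Pdgfb* arm (-0.17 and 0.10). *Cyp4a12a* and *Cyp4a12b*, and *Cyp2a4* and *Cyp2a5*, have transcripts that are 98.2% identical within each pair, so reads may have been split between the partners and their separate values are uncertain.

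UUO and CL kidneys were compared within each of the 6 treatments or genotypes, with a log2 fold change (UUO over CL) from 1 edgeR quasi-likelihood model per arm, Benjamini-Hochberg adjustment over all genes tested in the arm and a threshold of 0.05. More members fell than rose in each of the 6, but not for PdgfbiKO without TMM factors or with *Xist* as a covariate (5 higher and 4 lower). With IgG, 18 of 31 members passed the test, 14 lower and 4 higher, where 34.5% of all genes passed (18.2% lower, 16.3% higher). With ABTAA, 14 of 31 passed, 12 lower and 2 higher, beside 25.1% of all genes (12.5% lower, 12.6% higher). In VeptpWT, 16 of 35 passed, 13 lower and 3 higher, beside 18.4% (8.38% lower, 10% higher), and in VeptpiECKO 4 of 35 passed, 4 of them lower, beside 7.96% (3.48% lower). In PdgfbWT, 20 of 34 passed, 16 lower and 4 higher, beside 37.3% (19.4% lower, 17.9% higher), and in the libraries labelled PdgfbiKO 4 of 34 passed, 3 lower and 1 higher, beside 6.37% (2.42% lower, 3.95% higher). The median log2 change of the tested members was -0.64, -0.81, -0.67, -0.38, -0.83 and -0.11 in that order, where the median of all genes lay between -0.01 and 0.04. Without TMM factors the median of all genes stood at 0.23, 0.14, 0.14, 0.12, 0.41 and 0.08, and the members split into 5 higher and 11 lower with IgG, 3 and 9 with ABTAA, 4 and 8 in VeptpWT, 0 and 4 in VeptpiECKO, 9 and 13 in PdgfbWT, and 1 and 0 in PdgfbiKO. Of all genes, 37.4%, 24.9%, 16.2%, 7.18%, 51.3% and 6.58% passed in that setting. Whether UUO kidneys held fewer cells of a type or less RNA per cell cannot be told apart in whole-kidney RNA. All 10 proximal tubule markers tested fell with IgG and in PdgfbWT, 9 fell with ABTAA, 7 in VeptpWT, 6 in VeptpiECKO and 4 in PdgfbiKO, with medians of -1.23, -1.47, -0.83, -0.67, -0.72 and -0.59. Their summed level was 7203 to 10760 CPM in IgG CL against 3314 to 5465 in IgG UUO kidneys. The part of this fall in the members' changes was not tested.

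**Figure D2:**
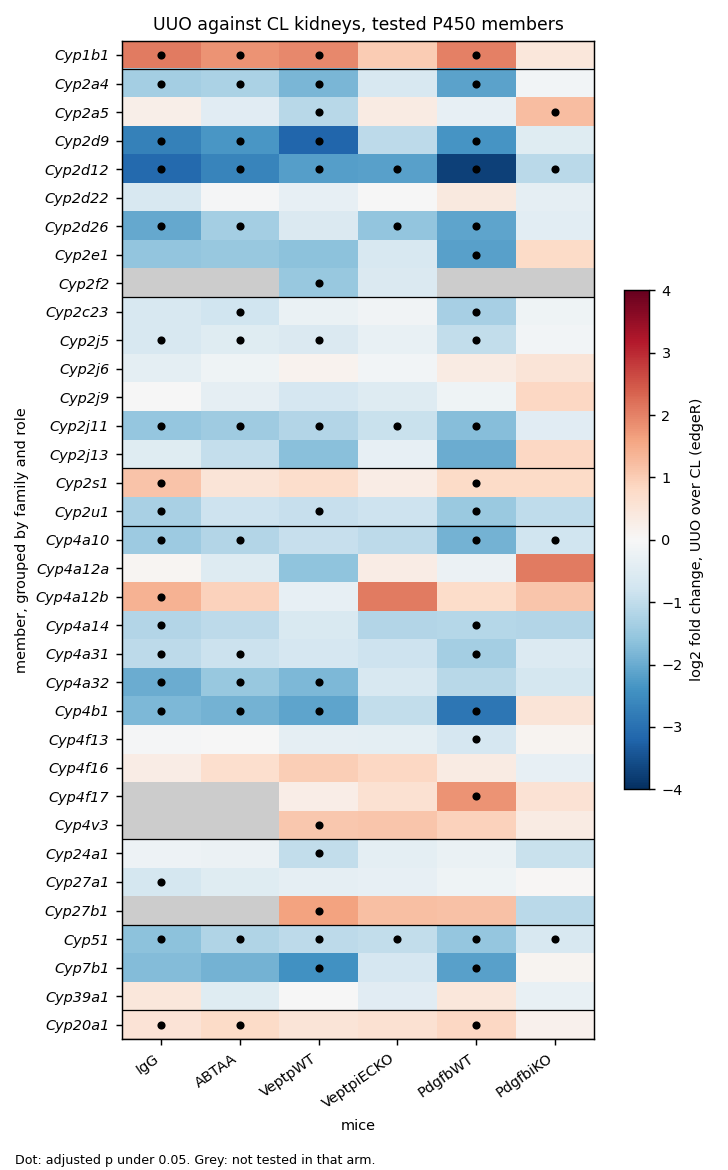
Log2 fold change of UUO over CL kidneys for the 35 tested members (rows) in the 6 treatments or genotypes (columns), with a dot where the adjusted p was under 0.05 and grey where a member was not tested. *Cyp51* and *Cyp2d12* carry a dot in all 6 columns, and *Cyp1b1* is the member with the most dots among those that rose, with 4.

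*Cyp2d12*, a Cyp2d enzyme of the chromosome 15 cluster (chr15:82555072-82560403), had the largest fall among the members that passed in 5 of the 6 comparisons, VeptpWT being the exception. With IgG it stood at 28.0, 97.3 and 187 CPM (lowest, median, highest) in CL kidneys and at 0, 11.5 and 19.8 in UUO kidneys. With ABTAA it stood at 70.1, 84.9 and 182 CPM in CL kidneys and at 1.94, 14.4 and 39.8 in UUO kidneys. Neither pair of groups overlapped, and on the log2 scale *Cyp2d12* fell by 3.12 with IgG (SE 0.40, adjusted p = 1.37e-07). With ABTAA it fell by 2.64 (SE 0.40, adjusted p = 4.78e-06). Groups of the *Veptp* arm overlapped, at 14.3, 50.1 and 75.2 CPM against 0, 5.34 and 36.1 in VeptpWT and 33.3, 47.8 and 205 against 4.98, 11.3 and 56.7 in VeptpiECKO. *Cyp2d12* fell there by 2.20 (SE 0.58, adjusted p = 0.00707) in VeptpWT, and in VeptpiECKO by 2.18 (SE 0.60, adjusted p = 0.0186), the latter call being lost without VeptpiECKO CL replicate 4 or in libraries with joined names alone. Both calls were lost without the libraries numbered 3, 4, 7 and 8.

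*Cyp2d9*, which hydroxylates testosterone, and *Cyp2d26* lie in the same cluster. *Cyp2d9* went from 22.8, 73.5 and 291 CPM in IgG CL to 8.24, 14.9 and 35.9 in IgG UUO kidneys, and from 17.6, 198 and 461 in VeptpWT CL to 5.01, 20.9 and 35.1 in VeptpWT UUO kidneys. The groups overlapped at their edges, and it fell by 2.71 with IgG (SE 0.48, adjusted p = 3.26e-05) and by 3.16 in VeptpWT (SE 0.67, adjusted p = 0.00107). It also fell with ABTAA (-2.34) and in PdgfbWT (-2.37). *Cyp2d26* went from 90.9, 210.3 and 453 CPM to 25.5, 44.3 and 118 with IgG, a fall of 2.06 (SE 0.39, adjusted p = 7.63e-05). It fell as well with ABTAA (-1.35), in PdgfbWT (-2.12) and in VeptpiECKO (-1.57), the last lost without any of 13 of the 29 libraries. The VeptpiECKO call was also lost without the libraries numbered 3, 4, 7 and 8, and it and the ABTAA call in libraries with joined names alone. The transcripts of *Cyp2d9* and *Cyp2d12* are 91.3% identical.

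*Cyp2a4* (chr7:26307169-26315088), a testosterone hydroxylase, stood at 222, 322 and 760 CPM in IgG CL and at 93.4, 139 and 210.2 in IgG UUO kidneys. In VeptpWT it stood at 230.4, 357 and 639 CPM in CL and at 78.8, 94.9 and 168 in UUO kidneys. Neither pair overlapped, and it fell by 1.35 with IgG (SE 0.27, adjusted p = 0.000138) and by 1.82 in VeptpWT (SE 0.25, adjusted p = 7.1e-06). With ABTAA it fell by 1.27 and in PdgfbWT by 2.13. In VeptpiECKO the change was -0.66 (SE 0.26, adjusted p = 0.118), which passed with *Xist* (-0.81, adjusted p = 0.00906) or the Y-chromosome sum (-0.75, adjusted p = 0.022) as a covariate and with the replicate block. *Cyp2a5*, the coumarin hydroxylase of the same cluster, fell in VeptpWT (-1.12, adjusted p = 0.0372, lost without any of 8 of 29 libraries). *Cyp2f2*, which activates naphthalene, fell in VeptpWT by 1.51 (SE 0.39, adjusted p = 0.00518). *Cyp2e1* passed in PdgfbWT (-2.18, SE 0.69, adjusted p = 0.0148, lost with DESeq2 or without PdgfbWT CL replicate 1) and in no other of the 6 in this model, with -1.57 for IgG, -1.53 for ABTAA and -1.65 for VeptpWT. By the exact test it passed with IgG (adjusted p = 0.0499) and ABTAA (adjusted p = 0.0343), and without the filter on low counts with IgG, with ABTAA and, higher in UUO kidneys, in PdgfbiKO. With the Y-chromosome sum as a covariate it fell with IgG (-1.28, adjusted p = 0.00152) and ABTAA (-1.24, adjusted p = 0.00356), and with *Xist* as a covariate it was higher in PdgfbiKO (1.97, adjusted p = 0.00808). *Cyp2e1* also passed in VeptpWT with the form of the library name as a covariate, and in VeptpWT and VeptpiECKO with the replicate block.

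*Cyp1b1* (chr17:79701537-79715061) had the largest rise among the members in each of the 4 comparisons in which it passed. It stood at 4.58, 13.9 and 36.1 CPM in IgG CL and at 45.1, 51.6 and 99.5 in IgG UUO kidneys. In VeptpWT it stood at 3.75, 11.2 and 24.8 CPM in CL and at 33.9, 43.9 and 70.4 in UUO kidneys. With ABTAA the levels of 5.69, 12.4 and 31.6 CPM in CL and 25.1, 42.7 and 85.5 in UUO kidneys overlapped, which the other 2 pairs did not. *Cyp1b1* rose by 2.07 (SE 0.32, adjusted p = 4.65e-06) with IgG, by 1.79 (SE 0.33, adjusted p = 0.000102) with ABTAA and by 1.92 (SE 0.37, adjusted p = 0.000372) in VeptpWT. In VeptpiECKO it stood at 3.83, 13.8 and 33.7 CPM in CL and at 9.37, 27.7 and 44.9 in UUO kidneys, with a change of 1.01 (SE 0.40, adjusted p = 0.122). It passed there with *Xist* as a covariate, with the form of the library name, alone or beside the Y-chromosome sum, and with the replicate block. Without VeptpiECKO CL replicate 2, a library with 227 CPM of the injury marker *Havcr1* where the median of its group was 8.93, the change was 1.26 (adjusted p = 0.0382), and 6 members passed in VeptpiECKO in place of 4. Of 6 fibroblast markers, 6 rose with IgG, with ABTAA and in VeptpWT and PdgfbWT, 2 rose in VeptpiECKO and 3 in PdgfbiKO. Their summed level was 122 to 278 CPM in IgG CL and 1068 to 1784 in IgG UUO kidneys, and 105 to 687 in VeptpiECKO CL and 296 to 1038 in VeptpiECKO UUO kidneys. Their part in the rise of *Cyp1b1* was not tested. *Cyp2s1* rose with IgG from 2.03, 8.76 and 15.2 CPM to 11.3, 19.4 and 33.0 (log2 1.14, SE 0.28, adjusted p = 0.00129) and in PdgfbWT (0.77, adjusted p = 0.0303).

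The promoters of *Cyp1b1* and *Cyp51* are shown because they are the members that rose in the most comparisons and, with *Cyp2d12*, fell in the most. They are the 250 bases before the RefSeq start sites on the minus strand (GRCm38.p6, chr17:79715062-79715311 and chr5:4104698-4104947). In capitals stand the core of the xenobiotic response element (GCGTG or CACGC, bound by the aryl hydrocarbon receptor) in *Cyp1b1*, whose first base lies 76 bases before the start, and a sterol response element (TCACCTCAG or CTGAGGTGA, bound by SREBP factors) in *Cyp51*, whose first base lies 88 bases before it.
Cyp1b1: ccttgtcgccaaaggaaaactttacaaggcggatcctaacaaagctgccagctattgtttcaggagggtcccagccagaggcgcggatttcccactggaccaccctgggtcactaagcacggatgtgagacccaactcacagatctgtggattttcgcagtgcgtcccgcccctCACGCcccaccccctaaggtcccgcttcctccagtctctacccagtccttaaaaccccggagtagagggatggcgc
Cyp51: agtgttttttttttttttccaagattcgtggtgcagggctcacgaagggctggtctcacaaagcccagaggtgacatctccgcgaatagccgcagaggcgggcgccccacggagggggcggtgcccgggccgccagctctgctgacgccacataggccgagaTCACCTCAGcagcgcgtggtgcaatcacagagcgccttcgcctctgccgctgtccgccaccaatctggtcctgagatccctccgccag
On both strands, the xenobiotic core occurred in 28.2% of all 32851 promoters and in 17 of 88 member promoters. The sterol element occurred in 0.295% of all (97 promoters) and in 1 of 88.

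Among the arachidonic acid epoxygenases, *Cyp2j11* and *Cyp2j5* lie in a cluster on chromosome 4. *Cyp2j11* (chr4:96294508-96348662) stood at 171, 249 and 382 CPM in IgG CL and at 37.2, 102 and 124 in IgG UUO kidneys. With ABTAA it stood at 196, 257 and 436 CPM in CL and at 78.9, 114 and 151 in UUO kidneys, and in VeptpWT at 193, 236 and 269 against 73.3, 103 and 132. UUO and CL libraries did not overlap in these 3 treatments or genotypes. *Cyp2j11* fell by 1.56 with IgG (SE 0.21, adjusted p = 2.77e-07), by 1.41 with ABTAA (SE 0.22, adjusted p = 6.54e-06) and by 1.18 in VeptpWT (SE 0.21, adjusted p = 0.00013). In VeptpiECKO it overlapped, at 169, 238 and 284 CPM against 53.6, 122 and 208, and fell by 0.90 (SE 0.21, adjusted p = 0.00731). This call was lost in libraries with joined names alone and without the libraries numbered 3, 4, 7 and 8. *Cyp2j5* (chr4:96628773-96664154) stood at 819, 1268 and 1936 CPM in IgG CL and at 579, 847 and 1059 in IgG UUO kidneys, and in VeptpWT at 989.6, 1089 and 1325 against 598, 715 and 843. The IgG groups overlapped and the VeptpWT groups did not, and *Cyp2j5* fell by 0.64 with IgG (SE 0.17, adjusted p = 0.00419) and by 0.59 in VeptpWT (SE 0.18, adjusted p = 0.0208). With ABTAA the fall was 0.49 (adjusted p = 0.048) and was lost without any of 20 of the 30 libraries. *Cyp2c23*, the main Cyp2c epoxygenase of the kidney, fell with ABTAA (-0.81, adjusted p = 0.0384, lost without any of 7 of 30 libraries, with the exact test, without TMM factors and in libraries of either name form alone) and in PdgfbWT (-1.34, SE 0.33, adjusted p = 0.00242). *Cyp2j6*, *Cyp2j9* and *Cyp2j13* passed in none of the 6 comparisons. With the Y-chromosome sum as a covariate, *Cyp2j13* fell by 0.97 (SE 0.28, adjusted p = 0.0053) with IgG, by 1.15 with ABTAA and by 1.63 in PdgfbWT. In PdgfbiKO its change was 0.83 (adjusted p = 0.696), and -0.39 (adjusted p = 0.643) with that covariate. There it was higher in UUO kidneys with *Xist* as a covariate (2.92, adjusted p = 0.012) and without the filter on low counts (0.79, adjusted p = 0.0114). *Cyp2u1*, which hydroxylates long-chain fatty acids, fell with IgG (-1.30), in VeptpWT (-0.91, lost without any of 7 of 29 libraries) and in PdgfbWT (-1.50).

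In family 4, *Cyp4a10* (chr4:115518264-115533649) stood at 316, 566 and 991 CPM in IgG CL and at 105, 222 and 363 in IgG UUO kidneys, ranges that overlapped. It fell by 1.44 (SE 0.28, adjusted p = 0.00012) with IgG, by 1.19 (SE 0.30, adjusted p = 0.00295) with ABTAA and by 1.90 (SE 0.23, adjusted p = 3.18e-07) in PdgfbWT. Its changes of -0.93 (adjusted p = 0.0609) and -1.06 (adjusted p = 0.0687) in the *Veptp* arm did not pass, though both did with the form of the library name as a covariate (-0.87, adjusted p = 0.00024, and -0.81, adjusted p = 0.00186), with the replicate block and in libraries with split names alone. The first also passed with joined names alone, and the second with *Xist* as a covariate and without VeptpiECKO CL replicate 2. *Cyp4a31* stood at 143, 227 and 345 CPM in IgG CL and at 73.7, 104 and 140.1 in IgG UUO kidneys without overlap, a fall of 1.04 (SE 0.17, adjusted p = 5.98e-06). *Cyp4a32* fell with IgG (-1.99), with ABTAA (-1.52) and in VeptpWT (-1.79). *Cyp4a32* is 97.2% identical to *Cyp4a10* and 96.0% to *Cyp4a31* by transcript, so the separate values of these 3 genes are uncertain. *Cyp4a14* fell with IgG (-1.18, adjusted p = 0.0154) and in PdgfbWT (-1.16, adjusted p = 0.0177, lost without any of 5 of 16 libraries). *Cyp4b1* fell by 1.81 (SE 0.67, adjusted p = 0.0354) with IgG, by 1.90 (SE 0.72, adjusted p = 0.049) with ABTAA and by 2.12 (SE 0.72, adjusted p = 0.0368) in VeptpWT. These calls were lost without any of 8 of 30, 18 of 30 and 9 of 29 libraries. With the Y-chromosome sum as a covariate the fall of *Cyp4b1* with IgG was 1.72 with an SE of 0.27 (adjusted p = 4.03e-06). With *Xist* as the covariate the *Cyp4b1* calls with IgG (-0.84, adjusted p = 0.184) and in VeptpWT (-1.20, adjusted p = 0.105) were lost, and all 3 were lost without TMM factors and in libraries of either name form alone. With the paired ABTAA libraries alone and a replicate block, *Cyp4b1* (-2.02, adjusted p = 0.08) and *Cyp4a32* (-1.11, adjusted p = 0.133) did not pass with ABTAA, and *Cyp4a14* fell (-1.25, adjusted p = 0.0119). The first 2 calls were also lost in libraries with split names and no block. Members of family 4 also rose: *Cyp4a12b* with IgG (1.39, SE 0.44, adjusted p = 0.0134), *Cyp4f17* in PdgfbWT (1.80, SE 0.35, adjusted p = 0.000179) and *Cyp4v3* in VeptpWT (1.09, adjusted p = 0.0484, lost without any of 18 of 29 libraries). *Cyp4f13* fell in PdgfbWT (-0.69, adjusted p = 0.0154, lost without PdgfbWT CL replicate 2), and *Cyp4a12a* and *Cyp4f16* passed in none of the 6.

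*Cyp51* (chr5:4081145-4104746) was lower in UUO kidneys in all 6 comparisons. It stood at 279, 499.6 and 560 CPM in IgG CL and at 43.4, 157 and 227 in IgG UUO kidneys. With ABTAA it stood at 367, 469 and 674 CPM in CL and at 142, 207 and 302 in UUO kidneys, and in VeptpWT at 318, 419.6 and 483 against 117, 206 and 255. The groups did not overlap in these 3, and *Cyp51* fell by 1.64 with IgG (SE 0.20, adjusted p = 7.86e-08), by 1.20 with ABTAA (SE 0.21, adjusted p = 4.77e-05) and by 1.05 in VeptpWT (SE 0.25, adjusted p = 0.00258). In VeptpiECKO it overlapped, at 177, 415 and 511 CPM against 103, 141 and 385, and fell by 0.97 (SE 0.26, adjusted p = 0.0148). The lowest of these CL levels was that of VeptpiECKO CL replicate 2, without which the fall was 1.12 (adjusted p = 0.00351). The VeptpiECKO call was lost with the exact test, in libraries with joined names alone and without the libraries numbered 3, 4, 7 and 8, and the ABTAA call in libraries with joined names alone. The PdgfbiKO call was lost without TMM factors and with the Y-chromosome sum as a covariate. *Srebf2*, the sterol-sensing transcription factor, passed in none of the 6. *Cyp27a1*, the mitochondrial sterol hydroxylase, fell with IgG (-0.71, SE 0.25, adjusted p = 0.0239), a call lost without IgG CL replicate 4 or 5 or IgG UUO replicate 6, with DESeq2, without TMM factors and in libraries of either name form alone. *Cyp7b1* fell in VeptpWT (-2.41, SE 0.77, adjusted p = 0.0265, lost without VeptpWT UUO replicate 4) and in PdgfbWT (-2.18, SE 0.87, adjusted p = 0.0498, lost without any of 7 of 16 libraries). With the Y-chromosome sum as a covariate it fell by 1.91 (SE 0.40, adjusted p = 0.000202) with IgG and by 1.63 with ABTAA. *Cyp39a1*, another oxysterol hydroxylase, passed in none of the 6, though it did with IgG and in PdgfbWT without TMM factors and with IgG with the Y-chromosome sum.

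Of the vitamin D enzymes, *Cyp27b1* (chr10:127048250-127053006) rose in VeptpWT, from 0.562, 5.97 and 9.93 CPM in CL to 5.86, 15.5 and 20.9 in UUO kidneys, groups that overlapped (log2 1.61, SE 0.44, adjusted p = 0.00827). *Cyp24a1* (chr2:170482708-170497145) fell there, from 29.1, 60.8 and 173 CPM to 30.6, 36.8 and 55.9 (log2 -0.98, SE 0.33, adjusted p = 0.037), a call lost without any of 7 of 29 libraries, with *Xist* (adjusted p = 0.0561) or the Y-chromosome sum (adjusted p = 0.0675) as a covariate, without TMM factors, with the replicate block and in libraries of either name form alone. Both calls were lost without the libraries numbered 3, 4, 7 and 8. In ABTAA libraries with split names *Cyp24a1* changed by -0.93 (adjusted p = 0.063) without the replicate block and by -0.95 (adjusted p = 0.0399) with it, where the change over all ABTAA libraries was -0.24. In PdgfbiKO the change of *Cyp24a1* was -0.90 (adjusted p = 0.102), which passed with the exact test (adjusted p = 0.037) and without the filter on low counts (adjusted p = 0.00111). *Cyp27b1* did not pass in PdgfbWT (1.18, adjusted p = 0.0715), where CL and UUO libraries did not overlap, and it passed there without TMM factors, without the filter and with either sex-linked covariate, did not pass with DESeq2 and was not tested by the exact test. In VeptpiECKO its change was 1.21 (adjusted p = 0.111), and 1.33 (adjusted p = 0.0159) with the form of the library name as a covariate. The liver vitamin D hydroxylase *Cyp2r1* did not exceed 5.67 CPM in any library and was not tested.

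The retinoic acid hydroxylases were not tested: *Cyp26b1* reached 26.9 CPM, and *Cyp26a1* and *Cyp26c1* stayed at or under 2.99 CPM. Nor were the steroid hormone enzymes *Cyp11a1*, *Cyp11b1*, *Cyp11b2*, *Cyp17a1* and *Cyp21a1*, which had at most 2 counts in any library. *Cyp20a1*, whose substrate is not known, rose with IgG (0.54, SE 0.20, adjusted p = 0.0381, lost without any of 14 of 30 libraries), with ABTAA (0.76, SE 0.21, adjusted p = 0.00612) and in PdgfbWT (0.83, SE 0.19, adjusted p = 0.00131).

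**Figure D3:**
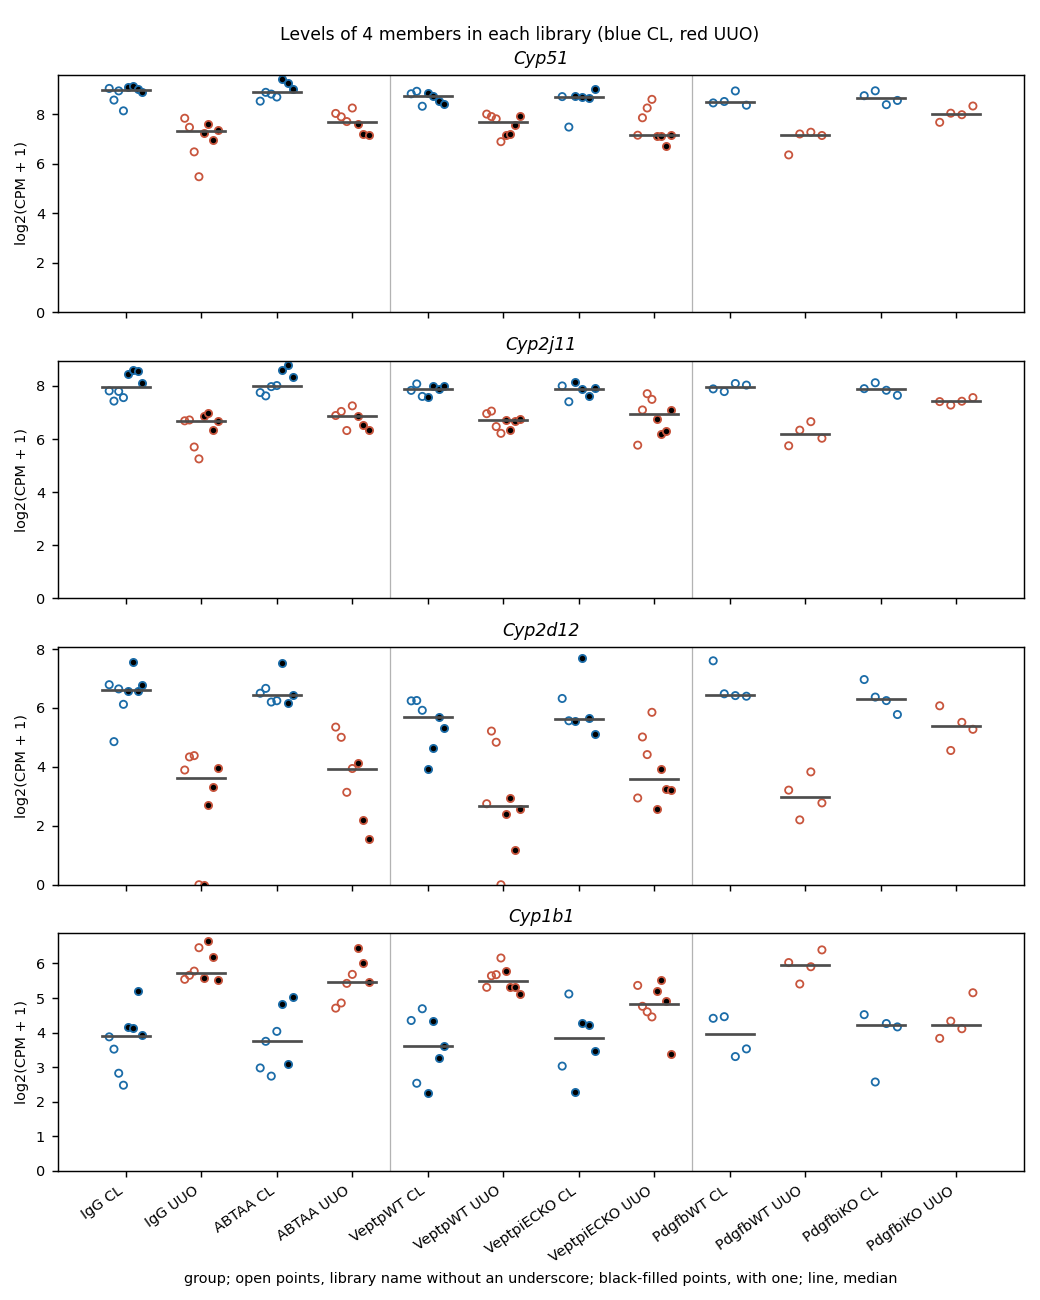
Levels of *Cyp51*, *Cyp2j11*, *Cyp2d12* and *Cyp1b1* in each library, by group, as log2(CPM + 1), with the group median as a line and filled points for split library names. *Cyp51* and *Cyp2j11* UUO points lie under the CL points in the IgG, ABTAA and VeptpWT pairs, and *Cyp1b1* UUO points lie above them in the IgG and VeptpWT pairs.

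Over the 6 comparisons, 21 of the 35 tested members were lower in UUO kidneys in at least 1, and 8 were higher in at least 1, with *Cyp2a5* in both, where 22.2% and 22.8% of the 12022 genes tested in at least 1 arm did so. Calls of members also depended on the setting. Without TMM factors they were lost for *Cyp27a1*, *Cyp2j5* and *Cyp4b1* with IgG, for *Cyp2c23*, *Cyp2j5* and *Cyp4b1* with ABTAA, for *Cyp24a1*, *Cyp2a5*, *Cyp2j5*, *Cyp2u1* and *Cyp4b1* in VeptpWT, for *Cyp4a14*, *Cyp4f13* and *Cyp7b1* in PdgfbWT, and for *Cyp2d12*, *Cyp4a10* and *Cyp51* in PdgfbiKO. With DESeq2 they were lost for *Cyp27a1* with IgG, for *Cyp2e1*, *Cyp2s1*, *Cyp4a14* and *Cyp7b1* in PdgfbWT, and for *Cyp2a5* and *Cyp2d12* in PdgfbiKO. The exact test, where it tested them, lost *Cyp2c23* and *Cyp2j5* with ABTAA, *Cyp2u1* in VeptpWT and *Cyp51* in VeptpiECKO. Without the filter *Cyp20a1* was lost with IgG, and *Cyp2j5* and *Cyp4v3* in VeptpWT. In VeptpWT, 10 tested members lost their call without the libraries numbered 3, 4, 7 and 8, of which *Cyp24a1*, *Cyp2d9*, *Cyp4b1* and *Cyp7b1* also did so in libraries with joined names alone. Members outside the reported calls passed under some settings, among them 10 in VeptpiECKO with the form of the library name as a covariate. With *Xist* as a covariate, calls were lost for *Cyp4b1* with IgG, for *Cyp2s1* and *Cyp7b1* in PdgfbWT, and for *Cyp24a1*, *Cyp2a5*, *Cyp2u1* and *Cyp4b1* in VeptpWT. With the Y-chromosome sum, they were lost for *Cyp24a1* in VeptpWT and for *Cyp2a5*, *Cyp4a10* and *Cyp51* in PdgfbiKO. *Cyp2d12* and *Cyp51* were lower in 6, *Cyp2j11* in 5, and *Cyp2a4*, *Cyp2d9*, *Cyp2d26*, *Cyp2j5*, *Cyp4a10* and *Cyp4b1* in 4. *Cyp2d22*, *Cyp2j6*, *Cyp2j9*, *Cyp2j13*, *Cyp39a1*, *Cyp4a12a* and *Cyp4f16* passed in none, and each of these 7 passed in at least 1 under another setting of the analysis.

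ABTAA and IgG were compared within UUO kidneys, within CL kidneys and as a difference of their UUO responses, and no member passed in any of the 3 (0% of all genes by edgeR). At an unadjusted p under 0.05, 2 members differed in UUO kidneys, *Cyp51* with a log2 difference of 0.50 and *Cyp39a1* with -0.60, 0 in CL kidneys and 1 in the difference. Over all genes the unadjusted counts were 340, 303 and 315. DESeq2 called 0 members in all 3, and edgeR's exact test, run for the first 2, called 0 as well.

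VeptpiECKO and VeptpWT kidneys gave no member past the threshold in UUO kidneys, in CL kidneys or in the difference of responses (0% of all genes by edgeR). Unadjusted, 5, 1 and 4 members and 426, 229 and 323 genes had a p under 0.05. In UUO kidneys these were *Cyp2a4* (1.20, adjusted p = 0.293), *Cyp2a5* (1.30), *Cyp2f2* (0.90), *Cyp2d9* (1.62) and *Cyp1b1* (-0.71), and DESeq2 and the exact test each called 1 member there (beside 0.00839% and 0.0369% of all genes), and 0 in CL kidneys. With the form of the library name as a covariate, *Cyp2a4* was higher in VeptpiECKO UUO kidneys by 1.19 (adjusted p = 0.0461) and *Cyp4a12b* lower in VeptpiECKO CL kidneys by -2.76 on the log2 scale (adjusted p = 0.0468). The 16 and 4 members that passed for UUO over CL in VeptpWT and VeptpiECKO became 22 and 14 with that covariate, beside 33.9% and 21.5% of all genes, and 24 and 21 with the Y-chromosome sum added, beside 34.2% and 25.1%. Without the libraries numbered 3, 4, 7 and 8, they became 4 and 0, beside 7.38% and 0.979%.

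UUO kidneys of mice labelled PdgfbiKO were compared with those of PdgfbWT mice. Of 34 members, 14 passed, 12 higher and 2 lower in PdgfbiKO, beside 18.6% of all genes (12% higher, 6.6% lower). The median log2 difference was 0.61 for the members and -0.02 for all genes. Without TMM factors the median of all genes moved to -0.29 and 9 members were higher and 4 lower, beside 28.9% of all genes that passed. Without PdgfbWT UUO replicate 4, 9 members passed. *Cyp2j11* stood at 52.7, 79.8, 99.8 and 64.4 CPM in the 4 PdgfbWT UUO libraries and at 169, 154, 171 and 188 in the 4 PdgfbiKO UUO libraries. In the CL kidneys it stood at 236, 220.0, 271 and 260.5 CPM in PdgfbWT and at 237, 277, 227 and 199 in PdgfbiKO. The PdgfbiKO UUO libraries thus lay between the PdgfbWT UUO libraries and both CL groups without overlap, and *Cyp2j11* was higher by 1.19 (SE 0.16, adjusted p = 1.23e-05).

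*Cyp51* stood at 80.7, 146, 153 and 139.5 CPM in the PdgfbWT UUO libraries and at 202, 261, 250.4 and 319.7 in the PdgfbiKO ones. *Cyp2a4* stood at 125, 74.4, 41.3 and 63.4 CPM against 351, 189, 167 and 213. *Cyp2d12* stood at 8.26, 3.60, 13.2 and 5.85 CPM against 66.3, 22.5, 44.6 and 37.7. In each of the 3 genes, all 4 PdgfbiKO libraries lay above all 4 PdgfbWT libraries. *Cyp51* was higher by 1.01 (SE 0.18, adjusted p = 0.000288), *Cyp2a4* by 1.56 (SE 0.26, adjusted p = 0.000103) and *Cyp2d12* by 2.25 (SE 0.38, adjusted p = 0.000164). *Cyp4a10* stood at 71.8, 89.4, 171 and 75.1 CPM against 255, 234, 232 and 178, higher by 1.11 (SE 0.23, adjusted p = 0.00113), also without overlap. *Cyp2d26* stood at 14.0, 29.4, 70.9 and 31.2 CPM against 53.0, 124, 157 and 90.3, which overlapped, and was higher by 1.56 (SE 0.36, adjusted p = 0.00326). *Cyp2j5* and *Cyp4a31* were higher by 0.72 and 0.79.

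*Cyp1b1* stood at 64.1, 41.4, 58.9 and 82.9 CPM in PdgfbWT UUO libraries and at 13.3, 19.1, 16.3 and 34.6 in PdgfbiKO UUO libraries. The groups did not overlap, and the PdgfbiKO levels overlapped those of both CL groups, which ran from 4.95 to 21.9 CPM. *Cyp1b1* was lower by -1.43 on the log2 scale (SE 0.28, adjusted p = 0.000593). *Cyp20a1* was the other member that was lower (-0.53, adjusted p = 0.0472), a call lost without any of 11 of the 16 libraries.

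*Cyp4b1* stood at 198, 121, 78.9 and 34.2 CPM in PdgfbWT UUO libraries and at 1906, 307, 272 and 184 in PdgfbiKO ones, and *Cyp2e1* at 106, 85.8, 56.5 and 52.7 against 693, 347, 234 and 88.8. Both groups overlapped for each gene. *Cyp4b1* was higher by 2.55 (SE 0.82, adjusted p = 0.0309), *Cyp2e1* by 2.10 (SE 0.70, adjusted p = 0.0362), *Cyp2d9* by 1.79 and *Cyp2a5* by 0.98, calls that were lost without any of 4, 5, 4 and 4 of the 16 libraries. The Y-chromosome sum stood at 139.7, 43.8, 0.401 and 0.976 CPM in the PdgfbWT UUO libraries and at 103, 112, 87.5 and 96.6 in the PdgfbiKO ones. With it as a covariate, 10 members passed, 9 of them among the 14, beside 16% of all genes. *Cyp2j11* was then higher by 1.27 (SE 0.18, adjusted p = 4.98e-06), *Cyp2a4* by 1.26, *Cyp2d12* by 1.92, *Cyp51* by 1.12, *Cyp4a10* by 1.34, *Cyp2d26* by 2.34, *Cyp4a31* by 0.88 and *Cyp2j5* by 0.55, and *Cyp1b1* lower by -1.36. *Cyp4b1* (1.35, adjusted p = 0.121), *Cyp2e1* (0.89, adjusted p = 0.237), *Cyp2d9* (1.01), *Cyp2a5* (0.53) and *Cyp20a1* (-0.53) no longer passed, and *Cyp2c23* did (1.23, adjusted p = 0.0224). Proximal tubule markers were higher in PdgfbiKO for 9 of 10 (median 0.88), with a summed level of 2365 to 3335 CPM in PdgfbWT UUO and 4158 to 7526 in PdgfbiKO UUO kidneys. Fibroblast markers were lower for 5 of 6 (median -0.97), at 1056 to 1459 against 382 to 925 CPM. Their part in the members' differences was not tested.

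**Figure D4:**
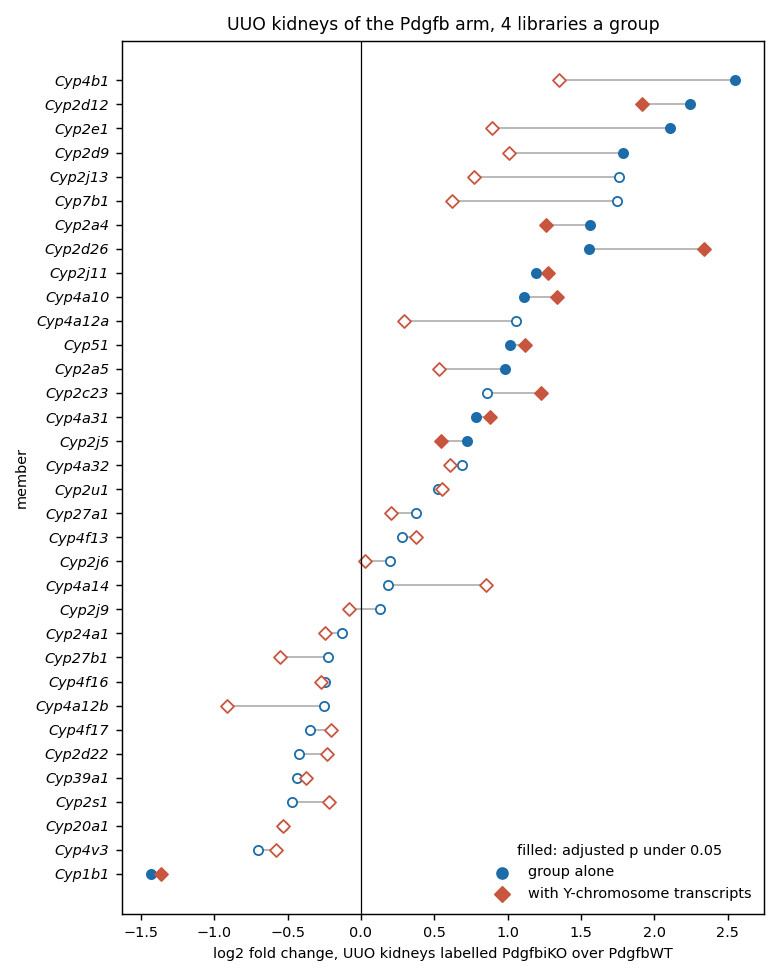
Log2 fold change of UUO kidneys labelled PdgfbiKO over PdgfbWT (x axis) for each tested member (rows), from the group alone (circles) and with the Y-chromosome sum as a covariate (diamonds), filled where the adjusted p was under 0.05. Both symbols of *Cyp2j11*, *Cyp2d12* and *Cyp51* are filled and lie close together, and those of *Cyp4b1* and *Cyp2e1* lie apart with the diamond open.

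In CL kidneys no member differed between PdgfbiKO and PdgfbWT (0% of all genes by edgeR, with 2 members and 379 genes at an unadjusted p under 0.05, and 4 members called without the filter on low counts). The UUO response itself, PdgfbiKO minus PdgfbWT, differed for 9 of 34 members, 7 higher and 2 lower, beside 8.55% of all genes (6.66% higher, 1.9% lower). The median difference of responses was 0.80 for the members and -0.00 for all genes, and without TMM factors the latter moved to -0.29 and 3 members were higher and 2 lower, beside 8.97% of all genes that passed. The 9 became 15 without PdgfbiKO CL replicate 1, the library of its group with Y transcripts alone, and 4 without PdgfbiKO CL replicate 4. *Cyp2d12* differed by 2.67 (SE 0.48, adjusted p = 0.00106), *Cyp2a4* by 2.03 (SE 0.35, adjusted p = 0.000737) and *Cyp2j11* by 1.26 (SE 0.22, adjusted p = 0.000835), and no left-out library ended these calls. *Cyp51*, *Cyp2j5*, *Cyp4a10* and *Cyp2d26* were higher by 0.91, 0.86, 1.11 and 1.71, calls that were lost without any of 4, 3, 9 and 8 of the 16 libraries. *Cyp1b1* was lower by -1.56 (lost without any of 11) and *Cyp27b1* by -2.25 (adjusted p = 0.0378, lost without any of 13). *Cyp27b1* stood at 4.51, 2.80, 4.45 and 5.27 CPM in PdgfbWT CL and 33.5, 17.3, 18.2 and 4.98 in PdgfbiKO CL kidneys, and at 11.4, 9.00, 6.41 and 15.6 against 3.32, 9.01, 6.86 and 11.0 in UUO kidneys, so that 3 of 4 PdgfbiKO CL libraries lay above all other libraries of the arm. With the Y-chromosome sum as a covariate 9 members passed again, beside 7.25% of all genes, 7 of them the same, with *Cyp1b1* and *Cyp2j5* lost and *Cyp2c23* and *Cyp4a31* gained. Within the arm, UUO over CL in PdgfbWT moved *Cyp2d12* by -3.74, *Cyp2j11* by -1.71 and *Cyp51* by -1.55, and in PdgfbiKO by -1.08 (adjusted p = 0.0489), -0.46 (adjusted p = 0.0915) and -0.63 (adjusted p = 0.0357). The PdgfbiKO calls for *Cyp2d12* and *Cyp51* were lost without TMM factors, that for *Cyp2d12* with DESeq2 and that for *Cyp51* with the Y-chromosome sum (-0.51, adjusted p = 0.162), and both were lost without any of 10 and 6 of 16 libraries, as were those for *Cyp4a10* (-0.78, 6) and for *Cyp2a5*, which rose (1.22, adjusted p = 0.0445, 7). Without PdgfbiKO UUO replicate 2, none of the 4 passed.

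Libraries with split and joined names differed for many members and genes. In the antibody arm 12 of 31 members passed, 11 higher and 1 lower with split names, beside 39.7% of all genes (18.6% higher, 21.2% lower), and in the *Veptp* arm 19 of 35, 17 higher and 2 lower, beside 62.4% (34% higher, 28.4% lower). *Cyp4a10* was higher by 0.96 (SE 0.12) in the antibody arm and by 1.20 in the *Veptp* arm. *Cyp4a31* was higher by 2.06 (SE 0.11, adjusted p = 1.72e-18) in the *Veptp* arm. *Cyp4a12a*, an arachidonic acid hydroxylase, stood at 330, 704 and 753 CPM in the 5 *Veptp* CL libraries with split names and Y transcripts alone, against 18.3 to 35.0 in 4 such antibody-arm libraries. For a response to UUO that depended on the form, no member passed in either arm (0.0313% and 0.436% of all genes, with 4 and 3 members at an unadjusted p under 0.05).

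Genes that work with P450s were listed beside the members. Of the partner genes, which supply electrons and haem or hydrolyse P450 products, 8 of 11 fell with IgG (median -0.73), 6 of 11 with ABTAA (-0.53), 5 of 13 in VeptpWT (-0.66), 1 of 13 in VeptpiECKO (-0.43), 8 of 13 in PdgfbWT (-0.73) and 0 of 13 in PdgfbiKO (0.05), where 18.2%, 12.5%, 8.38%, 3.48%, 19.4% and 2.42% of all genes fell. *Por*, the electron donor of microsomal P450s, fell by 0.91 (SE 0.19, adjusted p = 0.00028) with IgG, by 0.66 with ABTAA and by 1.16 in PdgfbWT. *Hmox1*, which breaks down haem, was the partner gene that rose, with IgG (1.51), with ABTAA (1.51), in PdgfbWT (1.06) and in PdgfbiKO (1.12). Between PdgfbiKO and PdgfbWT UUO kidneys 7 of 13 were higher (median 0.54), beside 12% of all genes, among them *Por* by 0.58 and the electron donor *Cyb5a*. Of the nuclear receptors and transcription factors of P450 genes, 7 of 13 fell with IgG (median -0.53), 4 of 13 with ABTAA (-0.46), 5 of 15 in VeptpWT (-0.45), where *Nr1i2* rose, 1 of 15 in VeptpiECKO (-0.34), 8 of 13 in PdgfbWT (-0.56) and 0 of 13 in PdgfbiKO (-0.17), beside the same shares of all genes. *Hnf4a*, a proximal tubule regulator, fell by 0.73 (adjusted p = 5.6e-06) with IgG and by 1.06 in PdgfbWT, and was higher by 0.59 in PdgfbiKO than in PdgfbWT UUO kidneys.

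Beside the counts of the next lists, 2.42% to 19.4% of all genes fell and 3.95% to 17.9% rose, depending on the comparison. Of 10 genes of vitamin D handling, 6 fell and 2 rose with IgG, 5 and 1 with ABTAA, 3 and 1 in VeptpWT, 3 and 1 in VeptpiECKO, 8 and 1 in PdgfbWT, and 4 and 1 in PdgfbiKO. *Kl* (Klotho), the co-receptor through which FGF23 acts on *Cyp27b1* and *Cyp24a1*, fell in all 6, by 1.59, 1.05, 1.22, 0.93, 2.13 and 0.60, and *Gc*, the vitamin D carrier, rose. Of the other eicosanoid enzymes, 2 of 7 fell and 1 rose with IgG, 1 and 1 with ABTAA, 1 and 1 of 8 in VeptpWT, 0 and 1 in VeptpiECKO, 1 and 2 in PdgfbWT, and 0 and 0 in PdgfbiKO. *Ephx2*, which hydrolyses the epoxides of the Cyp2c and Cyp2j enzymes, fell with IgG, with ABTAA, in VeptpWT and in PdgfbWT. *Alox5ap* rose in 5 of the 6, PdgfbiKO being the exception. Among markers of other cells, 5, 5, 5, 4, 5 and 4 of 6 genes of the loop and distal tubule fell in the 6 comparisons, all 4 injured tubule genes rose in each, and 6, 5, 5, 4, 6 and 4 of 6 macrophage genes rose. Podocyte genes passed in PdgfbWT (2 of 4 lower) and PdgfbiKO (1 of 4 lower), and endothelial genes with IgG (2 of 4 higher), with ABTAA (1 higher), in VeptpiECKO (1 lower) and in PdgfbWT (1 higher). *Fdx1*, the only adrenal marker tested, fell with IgG and in VeptpWT and PdgfbWT, no fat marker passed, and of 4 liver genes *Fgb* rose in all 6 and *Ttr* fell in 4. *Xist* and the Y-chromosome genes passed in none of the 6.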

How the data were processed

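Whole mouse kidneys were profiled by bulk RNA sequencing. Per the study's methods and the submitters' processing notes, RNA was isolated with RNeasy kits and made into Smart-seq3-type libraries, the 4 wells of a sample were merged, reads were aligned to mm10 with STAR 2.7.3a, molecular identifiers were handled with UMI-tools 1.1.4, and featureCounts (Subread 1.4.6-p5) counted genes. The authors deposited raw counts per gene and library. No source used here gives the annotation release or the strand setting, so *Cyp4x1os*, an antisense gene with 6 counts that the name rule includes, cannot be told apart from its partner.

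The counts were fitted with edgeR 4.0.16 (filterByExpr, TMM, quasi-likelihood) in R 4.3.3, 1 model per arm over its 4 groups, with Benjamini-Hochberg adjustment over all genes tested and a threshold of 0.05. SE is the absolute log2 fold change divided by the square root of F. Alternatives were DESeq2 1.42.0, edgeR's exact test (the study's test), no TMM factors, no filter, *Xist*, Y-chromosome sum or name form as covariates, each name form alone, a replicate block, and each library left out. Full statistics were kept for the 5 largest rises and falls among members that passed in each comparison of UUO with CL kidneys, for members that passed in the other comparisons, and for a set of enzymes given whatever their result (*Cyp24a1*, *Cyp27b1*, *Cyp2r1*, *Cyp27a1*, *Cyp26b1*, *Cyp1b1*, *Cyp51*, *Cyp2e1*, *Cyp2j5*, *Cyp4a10*, *Cyp4a12a*, *Cyp4a12b*, *Cyp4a14*, *Cyp4b1* and *Cyp7b1*). Members and lists were chosen with earlier results of these data known. Promoters came from RefSeq (GRCm38.p6), and gene positions from GENCODE M21.

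In simulated counts, genes changed by 2 on the log2 scale were recovered in 99 of 100 for IgG UUO over CL (9228 genes past the filter), 93 of 99 for VeptpWT (11617) and 97 of 97 for PdgfbWT (10584), and by 1 in 70 of 94, 49 of 98 and 71 of 99. Same-numbered ABTAA CL and UUO libraries (numbers 9, 11 and 12) deviated together (r = 0.36, 0.19 and 0.14), so these numbers were taken as pairs.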

Additional observations from a re-analysis of the deposited data

Results flagged for a closer look

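In 9 of the 156 sets of values tested (a named member in a group of 4 to 8 libraries), the lowest or highest library lay apart from the others by Dixon's criterion, which chance alone meets in about 1 of 20 sets. In VeptpWT UUO kidneys, *Cyp27b1* stood at 5.86 CPM in replicate 4 and at 11.7 to 20.9 in the others. In VeptpiECKO UUO kidneys, *Cyp27a1* stood at 5.22 CPM in replicate 2 against 20.1 to 48.8 in the others, and *Cyp4a12a* and *Cyp4a12b* stood at 0 CPM in replicate 4, a library with *Xist* alone where a count of 0 allows 8.96 CPM, against 21.0 to 317 and 14.5 to 170. *Cyp51* stood at 177 CPM in VeptpiECKO CL replicate 2 against 404 to 511, and at 80.7 CPM in PdgfbWT UUO replicate 1 against 139.5 to 153. *Cyp2e1* stood at 592 CPM in PdgfbiKO CL replicate 1, the only library of that group with Y transcripts alone, against 34.9 to 54.6. *Cyp7b1* stood at 0 CPM in ABTAA UUO replicate 1, where a count of 0 allows 6.28 CPM, against 13.8 to 103, and at 6.40 CPM in VeptpWT CL replicate 2 against 167 to 396, and both libraries held *Xist* alone.

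The response to UUO differed between libraries labelled PdgfbiKO and PdgfbWT, by the interaction term of edgeR's model, for 9 members. The difference (PdgfbiKO minus PdgfbWT, log2) was 2.67 for *Cyp2d12*, 2.03 for *Cyp2a4*, 1.71 for *Cyp2d26*, 1.26 for *Cyp2j11*, 1.11 for *Cyp4a10*, 0.91 for *Cyp51*, 0.86 for *Cyp2j5*, -1.56 for *Cyp1b1* and -2.25 for *Cyp27b1*. All 4 PdgfbiKO UUO libraries held *Xist* and Y transcripts, which was so for 2 of 4 PdgfbWT UUO libraries. In CL kidneys, 3 PdgfbiKO libraries held *Xist* alone and 1 held Y transcripts alone. Of the PdgfbWT CL libraries, 1 held *Xist* alone, 1 held Y transcripts alone and 2 held both.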

How the results depend on the processing

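Of 240 values of named members, 92 passed the test as reported, and none changed direction among those called, under any alternative. For UUO over CL kidneys, 18 members passed with IgG, and 14 to 19 when 1 library at a time was left out. With ABTAA 14 of 31 (25.1% of all genes) became 22 of 86 (12.5%) without the filter on low counts and 9 of 26 (11.6%) in libraries with joined names alone, and 11 to 15 with a library left out. In VeptpWT 16 of 35 (18.4%) became 9 of 21 (14%) in libraries with joined names alone and 4 of 33 (7.38%) without the libraries numbered 3, 4, 7 and 8, and 11 to 18 with a library left out. In VeptpiECKO 4 of 35 (7.96% of all genes) became 8 with *Xist* (12.3%), 7 with the Y-chromosome sum (9.11%), 14 with the name form (21.5%) and 21 with both the form and the Y-chromosome sum as covariates (25.1%), 13 with split names alone (21.1%), and 0 with joined names alone (0%) or without the libraries numbered 3, 4, 7 and 8 (0.979%), and 2 to 6 with a library left out (2 without VeptpiECKO CL replicate 4). In PdgfbWT 20 became 17 to 23. In PdgfbiKO 4 of 34 (6.37%) became 2 with DESeq2 (5.67%), 7 of 27 with the exact test (6.48%), 9 with *Xist* (8.81%), 1 with the Y-chromosome sum (3.92%), 1 without TMM factors (6.58%) and 10 of 89 without the filter (3.48%), and 0 to 6 with a library left out (0 without PdgfbiKO UUO replicate 2, 1 without PdgfbiKO CL replicate 2 or 3 or UUO replicate 3, and 2 without PdgfbiKO UUO replicate 4 or PdgfbWT CL replicate 4). For PdgfbiKO against PdgfbWT UUO kidneys 14 became 9 to 16 (9 without PdgfbWT UUO replicate 4). For their difference of responses 9 of 34 (8.55%) became 16 with *Xist* (10.1%), 5 without TMM factors (8.97%) and 17 of 89 without the filter (3.91%), and 4 to 15 with a library left out (15 without PdgfbiKO CL replicate 1, 4 without CL replicate 4, and 5 without CL replicate 3, UUO replicates 1, 2 or 3, or PdgfbWT UUO replicate 4). In CL kidneys of that arm 0 became 4 of 89 without the filter (0.0638%). For VeptpiECKO against VeptpWT, 0 became 1 in UUO kidneys with DESeq2, the exact test, the form, or the form and the Y-chromosome sum, and 1 in CL kidneys with the form or the form and the Y-chromosome sum. Of all genes, 0.00839%, 0.0369%, 0.0168% and 0.126% passed in these UUO settings and 0.0168% in both CL settings. The other comparisons of treated with control mice stayed at 0 to 0 with a library left out. The 19 of 35 members that differed by name form in the *Veptp* arm (62.4%) became 32 of 89 without the filter (35.2%). The causes were not tested.

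With the replicate block, fitted to numbered libraries with split names, 15 of 33 members passed with ABTAA (24.9% of all genes), 20 of 35 in VeptpWT (23%) and 21 of 35 in VeptpiECKO (26.4%), where 12 (24%), 16 (25.6%) and 13 (21.1%) passed in libraries with split names and no block, and 0 passed for VeptpiECKO against VeptpWT in UUO kidneys, CL kidneys or the difference. In the *Veptp* arm same-numbered libraries deviated with r from 0.04 to 0.41, all above the mean of different numbers (-0.03). The rule used here, r above 0.1 in every pair, was met with ABTAA but not there, so the numbers were not taken as pairs in the *Veptp* arm. Whether they mark mice is not settled, and *Veptp* results with the replicate block rest on that reading. Of the 66 members tested in no arm, *Cyp4f14*, *Cyp4f15*, *Cyp4f18* and *Cyp26b1* passed for UUO over CL kidneys in at least 1 comparison without the filter. Whether depth or low expression kept the 66 out was not tested.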

Other observations

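Of 11 pairs of CL and UUO libraries that share a number under the split names, 10 held the same kind of sex transcripts, and the pair numbered 4 in the *Veptp* arm held both in the CL and Y transcripts alone in the UUO library. In the pairs numbered 9, 11 and 12 of the ABTAA groups, *Cyp2j13* stood at 4.18, 251 and 198 CPM in the CL and at 1.26, 125 and 60.2 in the UUO libraries. *Cyp4a14* stood at 676, 142 and 295 CPM in the CL and at 322, 48.7 and 120.4 in the UUO libraries of these pairs. In the *Veptp* arm the pairs numbered 3, 4, 7 and 8, whose labels give opposite genotypes, held *Cyp2j13* at 1.76, 299.9, 379 and 498 CPM in the CL and at 4.30, 118, 175 and 277 in the UUO libraries. *Cyp46a1*, the cholesterol hydroxylase of neurons, *Cyp1a1*, the dioxin-inducible oxidase, and *Cyp3a13*, a Cyp3a drug oxidase, were among the untested members with 100 or more counts in all, at 144, 139 and 106.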
